A study of Drosophila melanogaster with 12 samples.

Results

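The histone genes of the larval ventral nerve cord of Drosophila melanogaster were compared between 3 kdm5 genotypes. They comprised every listed gene whose symbol began with His1, His2A, His2B, His3 or His4. The rule gave 93 of the 14251 genes listed in either deposited table. Of the 93, 89 were copies of the replicative histone genes and 4 were the single-copy variant genes His2Av, His3.3A, His3.3B and His4r. The choice rested on gene symbols and used no measured value.

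Nerve cords were taken from wandering larvae of the third instar raised at 25 °C, with 4 samples for each genotype and 12 in all. Animals labelled WT were not unmodified flies: they carried the allele kdm5 140 and a gKDM5 transgene that rescued it. The mutants were homozygous kdm5[L854F], a missense allele by its name, and homozygous kdm5[JmjC*], which the labels describe as enzymatically inactive. The promoter that drives the transgene, the number of animals in a sample, their sex and the number of independent lines are not given in the sources used here. RNA was a total extract, and libraries were made with a stranded mRNA kit.

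Histones are the proteins around which DNA is wound, and KDM5 is a demethylase that removes methyl groups from lysine 4 of histone H3 through its JmjC domain. The replicative histone genes of Drosophila lie in a tandem array in which each repeat holds a His1, a His2A, a His2B, a His3 and a His4 gene. They are transcribed in S phase to supply histones for newly copied DNA. Their mRNAs end in a stem-loop bound by the stem-loop binding protein Slbp, and processing of that end by the U7 particle normally leaves no poly(A) tail. The variant genes have ordinary polyadenylated mRNAs and are expressed in dividing and non-dividing cells. His2Av encodes the fly's only variant of the histone made by the His2A copies. His3.3A and His3.3B encode the same replacement H3 protein, and His4r encodes the same H4 protein as the array. A library that selects poly(A) RNA therefore samples replicative mRNA poorly, and it sees mainly those molecules that carry a tail or are carried over. Dividing neuroblasts and their daughter cells are the main source of S phase cells in the larval cord.

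Totals ran from 15103631 to 16850705 expected counts per sample. Neuron markers summed to between 5306 and 6516 counts per 1000000 (CPM, scaled by TMM over the 12 samples). Neuroblast markers summed to between 10062 and 12924 CPM. RNA from both lists was thus present in every sample, but a summed level does not show which cells made it. Nothing in the labels says that the 4 samples of a genotype were separate pools of animals, so p-values measure the spread between these samples, which may be technical. Changes were tested with edgeR's quasi-likelihood test on each table as a whole, with Benjamini-Hochberg adjustment over all rows, and a row was called at an adjusted p under 0.05. All adjusted p-values come from that test unless another is named.

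The annotation placed 111 replicative copies on 2L:21416953-21541681 of the dm6 build, and the tables listed 89 of them: 19 of His1, 17 of His2A, 22 of His2B, 18 of His3 and 13 of His4. The copies are almost identical in sequence, and the counts showed it. They fell into only 20 sets within which every copy had the same count in all 12 samples. All 18 His3 copies formed a single such set. The split of a class over its copies is thus uncertain, and each class was summed to 1 row for the test. Deposited expected counts are whole numbers, so a class spread over many copies moves in steps. His3 could take only multiples of 18 and was 0, 18 or 36 in every sample.

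Variant mRNA far exceeded replicative mRNA in these libraries. In WT, the 4 variant genes together held between 35032 and 38473 counts per sample, and the 89 replicative copies together held between 337 and 389. Per kilobase of deposited gene length, the WT levels were 798 ± 64.6 CPM for His4r, 735 ± 27.2 for His3.3B, 274 ± 30.4 for His3.3A and 182 ± 8.40 for His2Av (SD, n = 4). The first of these pairs of neighbours, His4r and His3.3B, overlapped between samples, while His3.3A stood below both and above His2Av in every WT sample. Replicative class sums were lower by more than an order of magnitude on the same per-kilobase scale. They stood at 10.8 ± 1.29 CPM for His1, 8.70 ± 2.58 for His2B, 6.81 ± 2.14 for His4 and 4.77 ± 1.12 for His2A (SD, n = 4), and His3 ran from 0 to 2.13. His1 and His2B overlapped between WT samples, as did His2B and His4, and His4 and His2A.

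JmjC* libraries held more replicative histone counts than WT libraries, and the excess differed in size between classes. Such libraries sample this RNA poorly, so its amount in the cords was not measured. His2B had 4.95 times the WT level, His2A 2.72 times and His1 1.86 times, and these 3 classes rose. His4 and His3 had higher fitted values that did not pass the test. Among the variants only His3.3A rose, by 1.27 times. In all, 4 of the 9 histone rows (5 class sums and 4 variants) were called and all 4 were higher, beside 17.3% of the 9238 rows tested (9.58% called higher). The same 4 rows were those in which every JmjC* sample exceeded every WT sample, a separation found in 22.7% of all rows in either direction.

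His2B makes the partner of the His2A protein in the nucleosome core. Its 22 copies summed to 89, 116, 62 and 74 counts in WT and to 409, 419, 413 and 422 in JmjC*. The highest WT sample lay far below the lowest JmjC* sample, and the JmjC* samples lay close together. The log2 fold change was 2.31 (adjusted p = 4.29e-06, SE 0.16).

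His2A sums were 45, 39, 26 and 45 counts in WT and 104, 104, 117 and 90 in JmjC*, with no overlap. The log2 fold change was 1.44 (adjusted p = 0.000496, SE 0.19). All 17 listed His2A copies overlap an annotated small noncoding RNA gene on the same strand, so reads of the 2 kinds of gene cannot be told apart there.

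His1 makes the linker histone. Its sums were 199, 146, 186 and 198 counts in WT and 328, 301, 416 and 289 in JmjC*, with no overlap. The log2 fold change was 0.90 (adjusted p = 0.000706, SE 0.13). The calls of His1, His2A and His2B held under all 19 alternatives run for each. These included each sample left out in turn and the largest shift that rounding could cause in the counts of the listed copies. Annotated copies that were not listed had no part in that shift.

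His4 and His3 make the pair of core histones around which the nucleosome is built. His4 sums were 45, 36, 45 and 72 counts in WT and 63, 81, 90 and 75 in JmjC*, and the WT sample at 72 lay among the JmjC* samples. Its log2 fold change of 0.67 ± 0.22 (SE) had an adjusted p of 0.0644, which became 0.0111 without WT replicate 4 and 0.0330 with DESeq2. His3 sums were 0, 18, 18 and 0 counts in WT and 36, 36, 36 and 18 in JmjC*. Its log2 fold change of 1.81 ± 0.74 (SE) had an adjusted p of 0.122, and a shift of 0.5 counts in each of the 18 copies would span the gap between these steps.

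**Figure D1:**
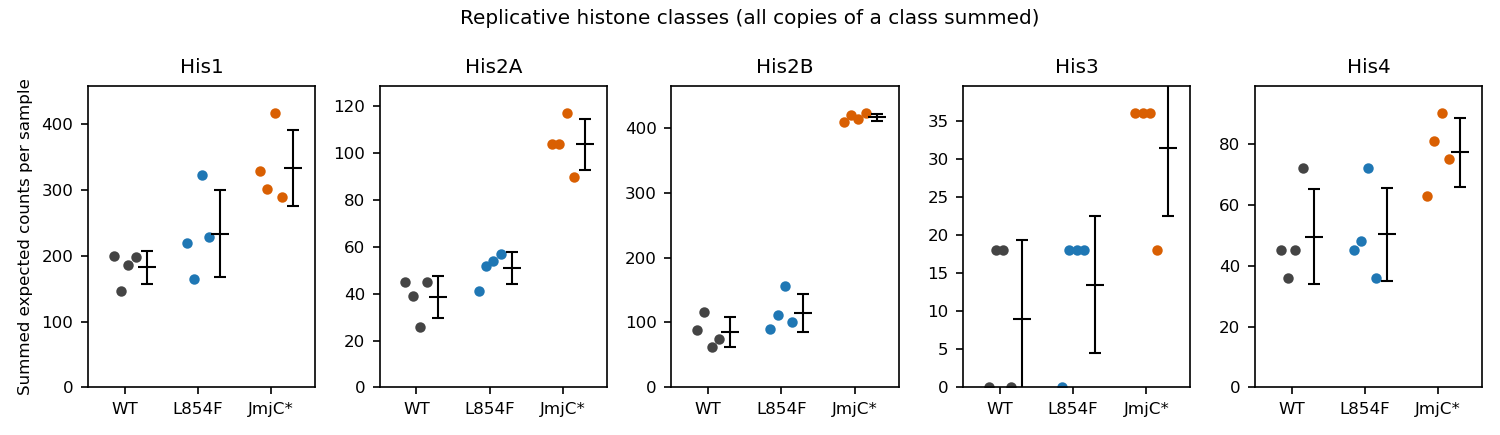
Summed expected counts of the 5 replicative classes in each of the 12 samples, with a separate linear axis from 0 for each class. Points are samples and the bar beside each group is the mean with its SD; His2B lies between 409 and 422 in JmjC* and between 62 and 116 in WT, while His3 takes only the values 0, 18 and 36.

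The make-up of the replicative signal differed too. For each His1 count there were 0.487 ± 0.210 His2B counts in WT, 0.505 ± 0.122 in L854F and 1.27 ± 0.207 in JmjC* (SD, n = 4). The highest value in WT was 0.795 and the lowest in JmjC* was 0.993, so the ratio did not overlap between them. The ratio of His2B to His2A was 2.25 ± 0.573 in WT and 4.05 ± 0.481 in JmjC* (SD, n = 4), again without overlap. The ratio of His4 to His1 overlapped, at 0.270 ± 0.0633 in WT and 0.234 ± 0.0363 in JmjC*. These ratios within a sample do not depend on library size, and they are given without a test.

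Single copies differed widely in their counts. His1:CG33816 (FBgn0053816, 2L:21456113-21457135, plus strand) alone held 74.3% of all His1 counts. It stood at 130, 80, 152 and 141 counts in WT, at 183, 135, 239 and 184 in L854F and at 229, 228, 297 and 229 in JmjC*. Every JmjC* sample exceeded every WT sample, and with each copy as its own row its log2 fold change was 0.995 (adjusted p = 0.00202, SE 0.17). The next His1 set, 6 copies with identical counts, held 48 to 90 counts in all in JmjC* and 30 to 54 in WT; summed, its log2 fold change was 0.87 (adjusted p = 0.0389, SE 0.26). His1:CG33816 carried 24.2% to 27.7% of all replicative counts in JmjC* and 22.5% to 45.1% in WT.

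As deposited, the His2B counts were less concentrated. The highest copy held 9.66% of them, and 8 of the 22 copies had under 10 counts in every sample. His2B:CG33868 (FBgn0053868, 2L:21537505-21538099, minus strand), the last listed His2B copy of the array, had 5, 5, 8 and 11 counts in WT and 49, 36, 46 and 45 in JmjC*. Its log2 fold change was 2.61 (adjusted p = 0.000133, SE 0.29). A set of 9 copies, His2B:CG33870, His2B:CG33878, His2B:CG33880, His2B:CG33884, His2B:CG33886, His2B:CG33888, His2B:CG33900, His2B:CG33906 and His2B:CG33908, had 7, 9, 4 and 5 counts per copy in WT and 29, 42, 30 and 31 in JmjC*. Each rose with a log2 fold change of 2.40 (adjusted p = 0.000371, SE 0.31). With single copies as rows these 10 His2B copies, His1:CG33816 and His3.3A were the histone genes called, beside 17.3% of all rows.

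The counts of 12 His2B copies show how uncertain the split is. In JmjC* replicates 1, 3 and 4, a further 3 copies had the same count as each of the 9 above, and the 12 together held 348, 360 and 372 counts. In JmjC* replicate 2 those 3 copies had 0 and the 12 together held 378. The sum hardly moved while the split did. His2A:CG33808 behaved alike, with 31, 0, 8 and 0 counts in WT, 0, 34, 0 and 39 in L854F and 0, 59, 0 and 0 in JmjC*, while the His2A class sum in JmjC* stayed between 90 and 117.

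**Figure D2:**
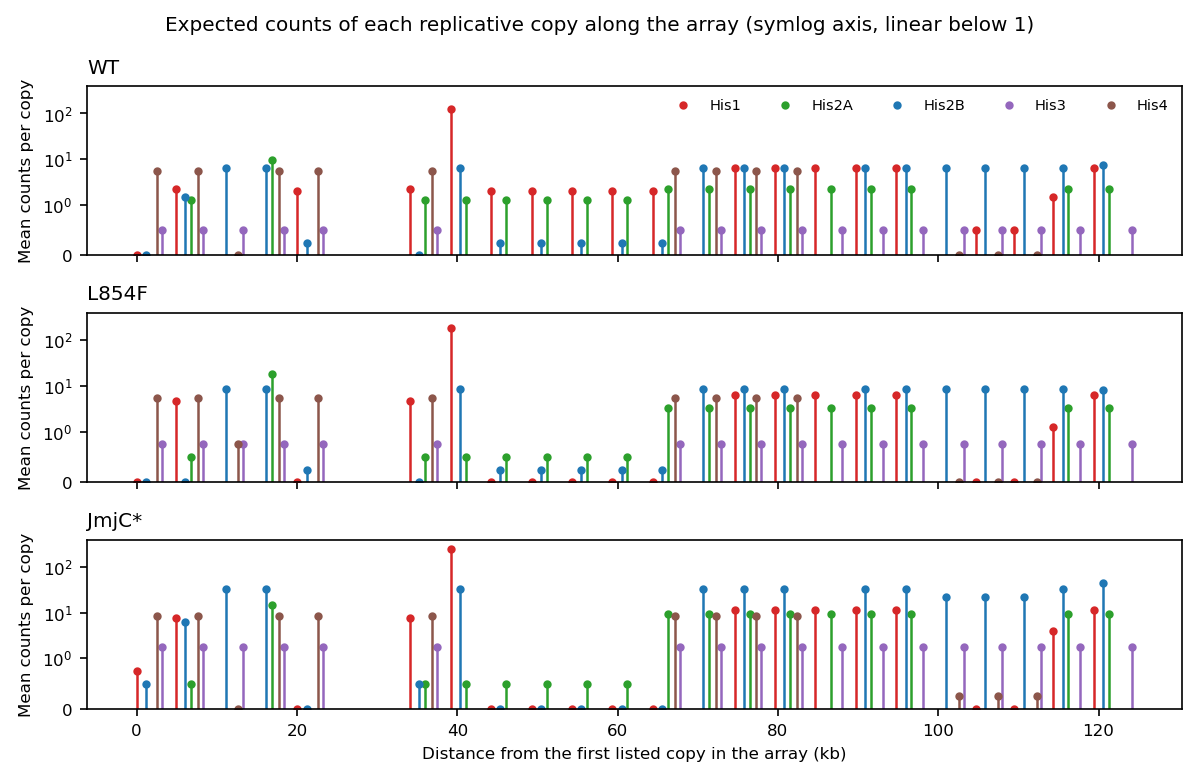
Mean expected counts per copy (n = 4 samples a group) for the 89 replicative copies, by distance in kb from the first listed copy, in the 3 genotypes. The vertical axis is symmetric-log, linear below 1; the tallest line in each panel is His1:CG33816 at 39.2 kb, and the blue lines of the 10 called His2B copies, which lie from 11.1 to 121 kb, stand higher in JmjC* than in WT.

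Differences of the variants were small. His2Av, which marks DNA breaks and regulated chromatin, had 3001, 2680, 2754 and 2661 counts in WT and 2747, 2521, 2730 and 2824 in JmjC*, and the groups overlapped. Its log2 fold change was -0.01, with a 95% interval from -0.12 to 0.10 (adjusted p = 0.921). His3.3B, the more abundant source of the replacement H3, had 22797, 22611, 22924 and 21286 counts in WT and 21633, 20697, 21822 and 22517 in JmjC*, also overlapping. Its log2 fold change was -0.02, with a 95% interval from -0.13 to 0.09 (adjusted p = 0.804).

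His3.3A (FBgn0014857, 2L:5055058-5056149, plus strand) was the variant that rose. It had 4144, 3448, 3170 and 3685 counts in WT and 4717, 4605, 4484 and 4192 in JmjC*. Every JmjC* sample exceeded every WT sample, and the log2 fold change was 0.34 (adjusted p = 0.0102, SE 0.08). The gene overlaps Nepl3, which lies on the opposite strand, and whether the counting used strand is not given in the sources used here. His3.3B (FBgn0004828, X:9152523-9156669, minus strand) supplied 86.1% ± 1.47 of the counts of the His3.3A and His3.3B pair in WT, 84.2% ± 1.52 in L854F and 82.8% ± 1.12 in JmjC* (SD, n = 4). The lowest WT share, 84.6%, lay just above the highest JmjC* share, 84.3%.

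His4r (FBgn0013981, 3R:14625755-14626614, plus strand) had 8531, 6700, 7662 and 7400 counts in WT and 8280, 7960, 10052 and 8067 in JmjC*. JmjC* replicate 3 stood above all others and the groups overlapped. The log2 fold change of 0.21, with a 95% interval from 0.03 to 0.39, had an adjusted p of 0.105. His2Av itself is FBgn0001197, at 3R:26866929-26869220 on the plus strand.

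**Figure D3:**
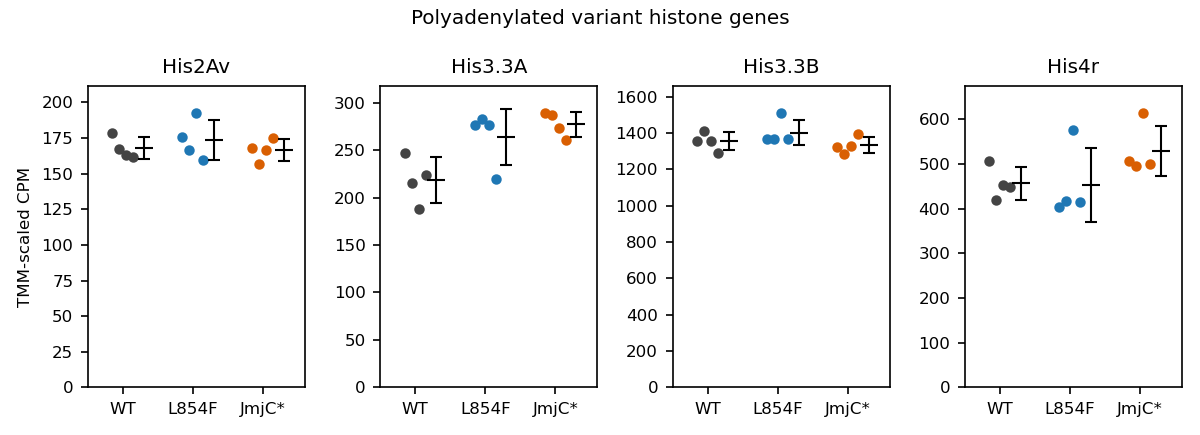
TMM-scaled CPM of the 4 polyadenylated variant genes in each of the 12 samples, with linear axes from 0; bars are means with SD (n = 4). His3.3A in WT lies below all JmjC* samples, while His2Av and His3.3B overlap between all 3 groups.

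In L854F no histone row was called against WT: 0 of 9, beside 5.52% of the 9109 rows tested. At an unadjusted p under 0.05 there was 1, His3.3A, and DESeq2 also called 0 of 9, beside 7.96% of all rows. The L854F and WT samples overlapped in all 9 rows, while 12.6% of all rows were separated.

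His1 stood at 219, 164, 323 and 228 counts in L854F, His2A at 41, 52, 54 and 57, and His2B at 90, 112, 156 and 101. L854F replicate 3 was the highest of its group for His1 and His2B. Against WT, the fitted log2 differences came to 0.42 for His1 (95% interval -0.01 to 0.84; adjusted p = 0.275), 0.44 for His2A (-0.05 to 0.94; adjusted p = 0.329) and 0.48 for His2B (-0.05 to 1.01; adjusted p = 0.320). Without L854F replicate 3, His1 came to 0.18 and His2B to 0.26; without WT replicate 3, His2A came to 0.29. A p that misses the threshold does not show that the genotypes are alike. His4, at 45, 48, 72 and 36 counts, and His3, at 0, 18, 18 and 18, had log2 fold changes of 0.08 (-0.54 to 0.71; adjusted p = 0.924) and 0.63 (-1.48 to 2.73; adjusted p = 0.796).

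Among the variants in L854F, His3.3A had 4520, 4527, 4164 and 3625 counts, and the sample at 3625 lay within the WT range. Its log2 fold change was 0.27 (95% interval 0.06 to 0.48; adjusted p = 0.135). Without that sample, replicate 4, it was 0.35 and passed the test (adjusted p = 0.0371), beside 4.63% of all rows. His2Av, at 2874, 2665, 2899 and 2635 counts, differed by 0.05 (-0.09 to 0.19; adjusted p = 0.751), and His3.3B, at 22351, 21866, 22756 and 22624, by 0.05 (-0.08 to 0.18; adjusted p = 0.720). His4r, at 6591, 6677, 8698 and 6855 counts, differed by -0.01 (-0.25 to 0.23; adjusted p = 0.968), with replicate 3 well above the other L854F samples.

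The mutants were also compared directly. His2B was lower in L854F than in JmjC* by a log2 fold change of -1.82 (adjusted p = 2.45e-05, SE 0.16) and His2A by -0.99 (adjusted p = 0.00184, SE 0.16), with no overlap between the groups in either class. These were 2 of 9 rows called, both lower in L854F, beside 15.9% of the 9192 rows tested (8.71% called lower). Groups were separated in 20.9% of all rows. The remaining classes were His1 at -0.48 (adjusted p = 0.121), His3 at -1.18 (adjusted p = 0.178) and His4 at -0.58 (adjusted p = 0.121). The variants His2Av, His3.3A, His3.3B and His4r gave 0.06, -0.07, 0.08 and -0.22 (adjusted p = 0.534, 0.625, 0.398 and 0.234). The 10 His2B copies named above were the single copies called lower in L854F, in a fit that called 16% of all rows. Of the His2B copies 13 passed the count filter there. The 10 called passed it through JmjC*, so that share is no yardstick for them.

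For the mutants, deviations of samples with the same replicate number correlated weakly, at 0.11 to 0.18. Pairs of unlike number ran from -0.27 to 0.11. With the number as a block, 4 of 9 histone rows were called, beside 22% of all rows: His1 fell by 0.50 on the log2 scale (adjusted p = 0.0119) and His4r by 0.23 (adjusted p = 0.0162), besides His2A and His2B. Without L854F replicate 3, and with no block, 5 rows were called, beside 14.3% of all rows, with His1 at -0.71 (adjusted p = 0.0106), His4 at -0.84 (adjusted p = 0.0213) and His4r at -0.35 (adjusted p = 0.0182) joining His2A and His2B. The comparisons of each mutant with WT share the same WT samples.

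**Figure D4:**
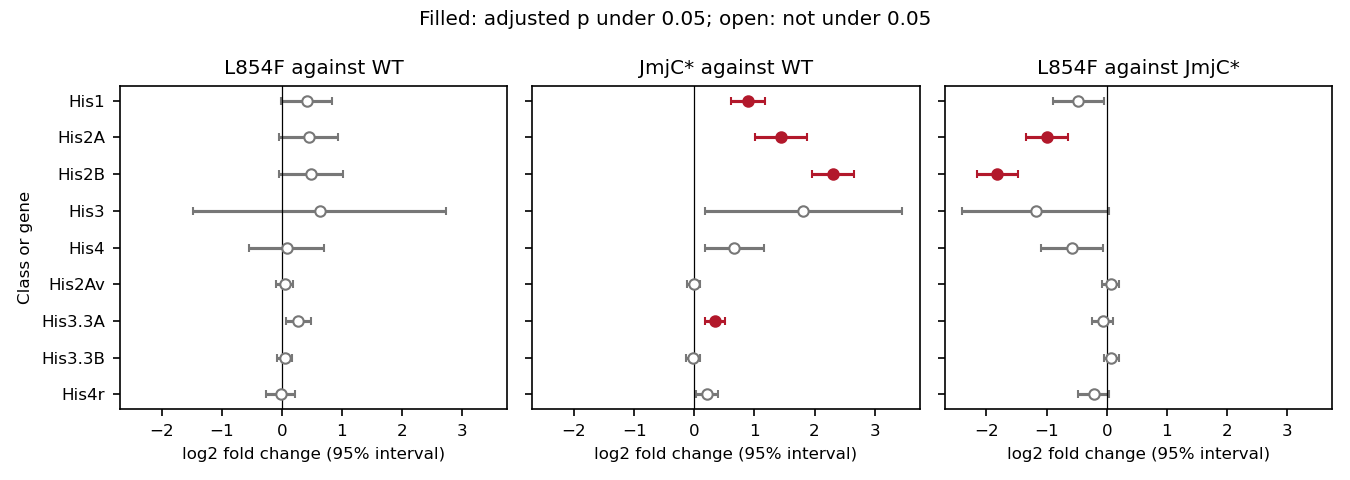
Log2 fold changes with 95% intervals of the 5 replicative class sums and 4 variant genes in the 3 comparisons, on a common horizontal axis. Filled red points passed an adjusted p under 0.05: none for L854F against WT, His1, His2A, His2B and His3.3A for JmjC* against WT, and His2A and His2B for L854F against JmjC*.

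Set against the variants within each sample, the replicative copies held 10.04 ± 0.782 counts per 1000 variant counts in WT, 12.6 ± 2.47 in L854F and 25.7 ± 1.56 in JmjC* (SD, n = 4). The WT samples ran from 9.23 to 11.1, the L854F samples from 10.9 to 16.2 and the JmjC* samples from 23.8 to 27.4. The JmjC* samples stood apart from all others, and L854F and WT overlapped. The log2 ratio was higher by 1.35 in JmjC* than in WT, where the pooled SD of the 2 groups was 0.10. It was higher by 0.31 in L854F, with a pooled SD of 0.20, and by 0.18 without L854F replicate 3.

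Other RNAs without a poly(A) tail give a partial measure of how much such RNA each library holds. Of 55 small nuclear, nucleolar and 7SL RNAs and their kin, 7 could be tested in JmjC* against WT and none was called by edgeR or DESeq2, with none at an unadjusted p under 0.05. The median log2 fold change was 0.51, beside 0.003 for all rows, of which edgeR called 17.3%. Their summed level was 16.0, 21.1, 16.8 and 62.2 CPM in WT, 17.8, 19.8, 49.7 and 26.3 in L854F and 30.2, 26.1, 34.8 and 28.2 in JmjC*. WT replicate 4 and L854F replicate 3 stood far above the rest of their groups. Most of each sum came from 2 7SL RNA genes with identical counts. Each of the 2 stood at 25.1 CPM in WT replicate 4, 19.6 in L854F replicate 3 and 8.65 to 12.9 in JmjC*. The sum is thus mainly a measure of 1 RNA, and the 7 tested rows are fewer than 7 separate signals.

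With WT replicate 4 the JmjC* samples lay inside the WT range. Without it all 4 lay above the remaining 3 WT samples, and the log2 ratio of the group means was 0.73. The 2 genes then called were the 7SL RNA genes 7SLRNA:CR32864 and 7SLRNA:CR42652, which had identical counts and so are 1 signal (log2 fold change 0.78, SE 0.16, adjusted p = 0.0110). That fit called 1351 of 9346 rows. 7SL RNA is the RNA of the signal recognition particle. Without the same sample the histone class sums of His1, His2A and His2B remained called in JmjC*. L854F replicate 3, high for 7SL RNA, was also the L854F sample with the most replicative histone counts (623, against 394 to 440). WT replicate 4 likewise held the most of its group, by a smaller gap (389, against 337 to 378). The part of such carry-over in the histone result was not tested. In L854F, 1 of 5 tested RNAs of the list was called higher than in WT, beside 5.52% of all rows called. It was RNaseP:RNA, the RNA of ribonuclease P (log2 fold change 3.27, SE 0.62, adjusted p = 0.0103). Against JmjC* 1 of 7 was called, beside 15.9% of all rows, again RNaseP:RNA, and it was higher in L854F. RNaseP:RNA stood at 0 to 0.303 CPM in WT, 0.735 to 2.32 in L854F and 0.0622 to 0.184 in JmjC*. It thus passed the count filter only through L854F, and the shares of all rows are no yardstick for its calls.

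Genes of DNA replication and S phase shared no direction. In JmjC* 2 of 38 were called higher and 2 lower, beside 17.3% of all rows called, with a median log2 fold change of -0.03. Those called were Psf1, a subunit of the GINS replication complex (0.90; adjusted p = 0.0112), E2f1, the S phase transcription factor (0.19; adjusted p = 0.0474), PolA2, a subunit of DNA polymerase alpha (-0.38; adjusted p = 0.0204), and RnrL, the large subunit of ribonucleotide reductase (-0.22; adjusted p = 0.0392). Their summed level was between 1464 and 1563 CPM in JmjC* and between 1471 and 1547 in WT. As few as 1 was called when single samples were left out, without JmjC* replicate 1 or WT replicate 3. In L854F edgeR called none of 38 against WT, 5 had an unadjusted p under 0.05 and DESeq2 called 1. Over all rows edgeR called 5.52% and DESeq2 7.96%. Against JmjC*, Mcm2 and Orc6 were higher in L854F. These were 2 of 38, beside 15.9% of all rows called, and the count was 0 to 3 with samples left out in turn.

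Genes of mitosis were higher in JmjC*: 11 of 18 were called higher and none lower, beside 9.58% of all rows called higher, with a median log2 fold change of 0.30. Those with the smallest adjusted p were borr, a subunit of the chromosomal passenger complex (0.85, SE 0.06, adjusted p = 6.82e-06), Cdk1, the mitotic kinase (0.69, SE 0.08, adjusted p = 0.000130), and its partner CycB (0.51, SE 0.07, adjusted p = 0.000413). The list summed to between 1065 and 1121 CPM in JmjC* and between 836 and 942 in WT. In L854F 3 of 18 were called higher than in WT, borr, CycB3 and scra, beside 5.52% of all rows called, with sums between 957 and 977 CPM. That count was 0 to 5 with samples left out in turn. Against JmjC*, 10 of 18 were lower in L854F, beside 8.71% of all rows called lower, and 4 to 8 were called with samples left out.

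**Figure D5:**
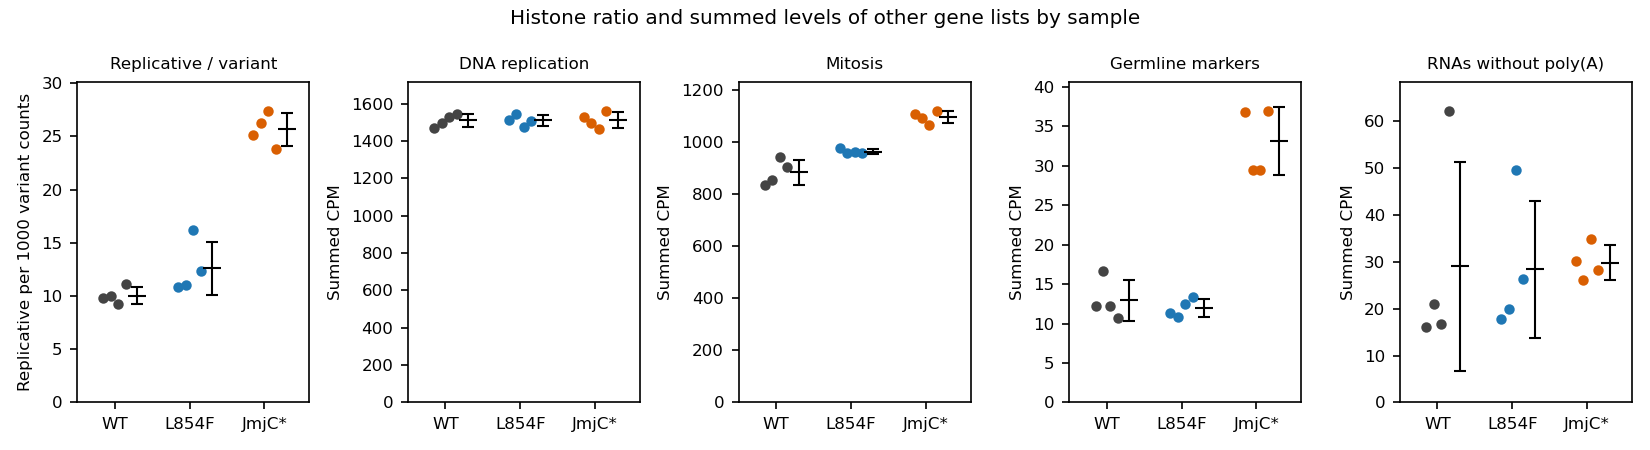
Replicative counts per 1000 variant counts and the summed CPM of 4 other gene lists in each of the 12 samples, with linear axes from 0; bars are means with SD (n = 4). JmjC* samples stand apart for the histone ratio, mitosis and germline markers, the DNA replication sums overlap in all groups, and for RNAs without poly(A) WT replicate 4 (62.2) and L854F replicate 3 (49.7) stand highest. Most of the sum of RNAs without poly(A) is 7SL RNA, entered as 2 genes with identical counts.

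Few of the factors that make and process replicative histone mRNA passed the test. In JmjC* 2 of 18 were called, both higher, beside 9.58% of all rows called higher, and 1 to 3 with samples left out in turn. They were abo, a regulator of histone gene transcription in the fly (15.4 ± 1.11 CPM against 8.49 ± 0.937 in WT, SD, n = 4; log2 fold change 0.86, edgeR adjusted p = 0.000224), and mute, a protein of the histone locus body (0.18; adjusted p = 0.0240). Slbp, at -0.16 (adjusted p = 0.241), and mxc, the scaffold of the histone locus body, at 0.15 (adjusted p = 0.114), did not pass. In L854F 1 of 18 was called, beside 5.52% of all rows: Cbp80, a subunit of the cap binding complex (0.33; adjusted p = 0.0151), which was not called without L854F replicate 1, and abo stood at 0.41 (adjusted p = 0.0761), Slbp at -0.07 (adjusted p = 0.738), mxc at 0.03 (adjusted p = 0.788) and mute at -0.08 (adjusted p = 0.539). Against JmjC*, abo (-0.44, adjusted p = 0.0119) and mute (-0.25, adjusted p = 0.0108) were lower in L854F and Cbp80 was higher (0.31, adjusted p = 0.0125). These were 3 of 18 called, beside 15.9% of all rows.

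Of 21 histone chaperones and exchange factors, edgeR called none in either mutant against WT. Over all rows edgeR called 17.3% in JmjC* and 5.52% in L854F. In JmjC* 5 of the 21 had an unadjusted p under 0.05, and DESeq2 called 4, beside 1772 of all 9238 rows. In L854F both numbers were 1, and DESeq2 called 7.96% of all rows. The 21 summed to between 3298 and 3376 CPM in JmjC*, below the 3402 to 3532 CPM of WT. L854F, at 3463 to 3509 CPM, overlapped WT. Between the mutants, Nasp, a chaperone of H3 and H4, and Mcm2 were higher in L854F (0.20 and 0.21). These were 2 of 21, beside 15.9% of all rows called, and the count was 0 to 2 with samples left out in turn. The centromeric H3 variant cid and its chaperone cal1 were the 2 of 6 further histone-like genes that could be tested, and neither was called in any comparison by edgeR or DESeq2, nor had an unadjusted p under 0.05. In JmjC* against WT they stood at 0.15 (adjusted p = 0.709) and 0.05 (adjusted p = 0.612).

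Of 16 genes flanking the array within 100 kb, 12 were tested. In JmjC* 1 was called, CG2201, at 0.30 (adjusted p = 0.0120), beside 17.3% of all rows. In L854F against WT edgeR and DESeq2 called none, beside 5.52% and 7.96% of all rows, with none at an unadjusted p under 0.05. Between the mutants 1 of 12 was called, beside 15.9% of all rows. It was CG2201, lower in L854F than in JmjC* (-0.36, adjusted p = 0.0223), a call lost without JmjC* replicate 4. The median over the 12 was 0.03 in JmjC* against WT, beside 0.003 for all rows.

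Markers of other cells were examined too. Of 11 germline markers, 8 could be tested and 4 were higher in JmjC* and none lower, beside 9.58% of all rows called higher: bam (2.93; adjusted p = 1.88e-06), aub (1.80; adjusted p = 5.98e-05), vas (2.35; adjusted p = 0.000779) and zpg (4.36; adjusted p = 0.00132). Their summed level was between 29.4 and 37.0 CPM in JmjC*, between 10.7 and 16.6 in WT and between 10.8 and 13.4 in L854F. Its part in the histone result was not tested. In L854F edgeR and DESeq2 called none of 6 against WT, beside 5.52% and 7.96% of all rows, with none at an unadjusted p under 0.05. Against JmjC*, 5 of 8 were lower in L854F, beside 8.71% of all rows called lower. Only 6 passed the count filter in L854F against WT, so some of the 8 passed it only with the JmjC* samples. The shares of all rows are therefore no fair yardstick for either count out of 8.

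Of 14 neuroblast markers in JmjC*, ase was higher (0.26) and mira lower (-0.54). Of 9 neuron markers, Rdl and nSyb were higher (0.38 and 0.32), and of 8 glia markers alrm was higher (1.65) and moody lower (-0.31). Of 12 imaginal disc markers, ci was higher (0.40) and wg lower (-1.13). Of 7 fat body markers apolpp was higher (0.34), while the median log2 fold change of the 7 was -0.61 and 3 had an unadjusted p under 0.05. Of 10 hemocyte markers Pxn was lower (-0.53), and of 10 muscle markers Mlc2, sls and Tm2 were lower. Called in JmjC* were thus 2 of 14 tested neuroblast markers, 2 of 11 of imaginal disc, 1 of 7 of fat body and 1 of 8 of hemocytes, near or below the 17.3% of all rows, and 2 of 9 of neurons, 2 of 8 of glia and 3 of 9 of muscle. No salivary gland marker was called by edgeR or DESeq2, and 1 of 7 had an unadjusted p under 0.05. Summed levels were higher in every JmjC* sample than in every WT sample for fat body (1267 to 1531 against 991 to 1202 CPM) and glia (1698 to 2060 against 1340 to 1600 CPM). For muscle they were lower (50.9 to 63.6 against 76.0 to 132 CPM). The sums of the other lists in this paragraph overlapped between JmjC* and WT. In the imaginal disc list no gene was called without WT replicate 1, and apolpp was not called without JmjC* replicate 2, 3 or 4 or without WT replicate 1 or 4. In L854F against WT, mira, wg and Mlc2 were called lower and no other marker of these lists, where 5.52% of all rows were called. The call of mira was lost without L854F replicate 3 or 4 or without WT replicate 1, 2 or 4. The part of these marker levels in the histone values was not tested. In bulk tissue, fewer cells of a type and less RNA per cell cannot be told apart.

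In the authors' deposited table for JmjC*, adjusted p-values under 0.05 were given to 1 of 19 His1 copies, 10 of 22 His2B copies and His3.3A, all higher than in WT. Of these His2B copies, 9 had identical counts in every sample and so are 1 signal. The share of all genes under that threshold in the authors' table was not counted. For His1:CG33816 the authors' deposited table gave a log2 fold change of 0.98, for His2B:CG33868 of 2.45 and for His3.3A of 0.34. In the authors' deposited table for L854F no histone gene had an adjusted p under 0.05.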

How the data were processed

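Per the submitters' processing notes, reads were handled with Bowtie2 2.2.5, RSEM 1.2.12 and DESeq2 on build dm6. The authors deposited RSEM expected counts per gene for WT with each mutant, already whole numbers, so rounding changed nothing. They also deposited tables of log2 fold changes, p-values and adjusted p-values, gene lengths and a mean expression signal per group; the authors' signal was not used. WT counts were identical in both tables, and a gene absent from a table had 0 counts in WT in the other. Such a gene was taken as 0 in levels over the 12 samples and in histone sums. Apart from histone genes, the direct comparison of the mutants used only the 13416 genes listed in both tables. Gene positions and overlaps came from the Ensembl annotation of the same build.

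Each comparison was fitted on its own 8 samples in edgeR 4.0.16 (R 4.3.3) with TMM factors and filterByExpr at a minimum count of 10 and a minimum total of 15. CPM values shown by sample used TMM factors over all 12 samples. DESeq2 1.42.0, other scalings, other filters, a replicate block and each sample left out were alternatives. Standard errors are the log2 fold change divided by the root of the F statistic. Intervals cover the spread between samples only.

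Replicate numbers are given by the labels with no stated meaning. Deviations from group means of same-numbered L854F and JmjC* samples correlated across genes at 0.11 to 0.18, every pair over 0.1, so values with the number as a block are given beside the unblocked fit for that comparison; neither pairing with WT met that rule. Replicates of a group differed by 8.17 to 27.9 times the sampling noise (chi-square per degree of freedom).

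All 9 histone rows are named. Of single copies, those called and the 3 with the highest mean are named; His2B copies tied for the third. From other lists, up to 3 called genes with the smallest adjusted p are named, with Slbp, mxc and mute; a few more are named where a count is small. Members and lists were chosen with earlier results of these data known.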

Additional observations from a re-analysis of the deposited data

Results flagged for a closer look

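Among 30 groups of 4 samples (the 9 histone rows and the ratio of replicative to variant counts, in 3 genotypes), 6 held a sample far from the other 3 by Dixon's gap criterion, and chance gives about 1 in 20. In L854F replicate 3, His3.3B stood at 1509 CPM, against 1368 to 1369 in the other samples, and His4r at 577 CPM, against 404 to 418. L854F replicate 4 was low for His3.3A, at 219 CPM against 276 to 283. JmjC* replicate 3 was high for His4r, at 613 CPM against 495 to 507. His3 was at 0 CPM in L854F replicate 1, against 1.09 to 1.19 in the others, and at 1.12 CPM in JmjC* replicate 4, against 2.197 to 2.24. The His3 values are steps of 1 count in each of 18 copies.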

How the results depend on the processing

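Of 521 alternative values of the 9 histone log2 fold changes, 495 kept their direction and their side of the threshold. The number of histone rows called was 4 to 5 with samples left out in turn for JmjC* against WT, 0 to 1 for L854F against WT and 2 to 5 for L854F against JmjC*. Between the mutants it was 4 with the replicate block; with each copy its own row, all called copies belonged to 1 class, His2B. Without His1, the log2 ratio of replicative to variant counts differed by 1.75 for JmjC* against WT and by -1.44 for L854F against JmjC*. With all classes included and samples left out in turn, this log2 ratio ran from 1.31 to 1.40 for JmjC* against WT, from 0.18 to 0.38 for L854F against WT and from -1.17 to -0.98 for L854F against JmjC*. Directions turned only for values that missed the threshold. For L854F against WT, with class sums moved by 0.5 counts per copy, His2A became -0.11 and His4 -0.29; with the lower group raised by 1 count per copy, His2A became -0.078, His4 -0.25 and His3 -0.94. These alternatives were chosen after seeing the data. With samples left out in turn, L854F against WT ran from -0.18 to 0.32 for His4, from -0.0053 to 0.085 for His2Av and from -0.15 to 0.038 for His4r; the sign turned for His4 and His2Av without L854F replicate 3, for His4 also without WT replicate 2, and for His4r without L854F replicates 1, 2 and 4 and WT replicate 1. JmjC* against WT ran from -0.034 to 0.019 for His2Av, and L854F against JmjC* from -0.10 to 0.015 for His3.3A. His3 between the mutants became 0.033 and 0.032 under the count shifts. His3.3A in JmjC* missed a threshold of 0.01 (adjusted p = 0.0102). The cause was not tested, apart from the count shifts, which set it. The replicate block changed no histone call against WT, where numbers did not pair the samples (correlations -0.08 to 0.10 for JmjC* and 0.04 to 0.14 for L854F). Of 960 alternative values of the 48 counts of called genes in other lists, 821 stayed within 1.5 times the reported count. Over all rows, 503 were called in L854F against WT, but 307, 336 and 333 without L854F replicate 1, WT replicate 2 and WT replicate 4, and 1460 in L854F against JmjC*, but 972 and 968 without L854F replicate 1 and JmjC* replicate 1. Counts of about 100 or fewer in a class limit His2A, His3 and His4. His2B was also low outside JmjC*, at 62 to 116 counts in WT and 90 to 156 in L854F.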
